A study of Mus musculus with 26 samples.

Results

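The genes described here are 39 genes that mark microglia and macrophages, taken from the deposited table of counts per gene by their Entrez identifier. All 39 were among the 24454 genes of the table, and all 39 had enough counts to be among the 15617 genes tested. Of these, 13 were taken as homeostatic microglia genes, which resting microglia hold above other macrophages, and 26 as genes that microglia share with macrophages. They were followed in 26 RNA sequencing libraries of GFP-positive cells sorted by flow cytometry from early-stage mouse gliomas, in which GFP was a reporter that Cre recombinase had switched on.

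Every tumour carried the label of a loss of the tumour suppressor Trp53 and was driven by PDGF, controls included. The control tumours (n = 6) had intact Notch signalling. The other tumours were labelled Notch2-/- (n = 5), Notch1-/- (n = 6), Notch1-/-Notch2-/- (n = 5) and Rbpj-/- (n = 4). The sources used here give neither the promoter that drove Cre nor the age and sex of the mice. Whether the libraries of a genotype came from different mice is not stated in the labels. The p-values therefore speak of the spread between these samples alone, and how much of that spread is technical is not known.

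Microglia are the resident macrophages of the brain. In the resting state they hold a characteristic set of surface receptors and transporters, the homeostatic genes, and these are known to be lost when microglia are activated or when blood-derived macrophages take their place. Both cell types depend on the transcription factor PU.1 and the receptor of colony stimulating factor 1, and both carry complement C1q, Fc receptors and a large set of lysosomal proteases. Neither is a glioma cell, while the labels call the sorted cells tumour cells. In bulk RNA, fewer cells of a type and less RNA per cell cannot be told apart, and this holds for every difference below.

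Total counts per library were 30868828 to 48103535. Notch2 was lower in the libraries labelled Notch2-/- than in the controls by a log2 fold change of -0.79 (adjusted p = 0.0200, quasi-likelihood test of edgeR), and Rbpj was lower in those labelled Rbpj-/- by -0.70 (adjusted p = 0.0222). Libraries labelled Notch1-/- had Notch1 at 88.2 to 214 CPM, no lower than the controls at 71.2 to 148 CPM, and Notch2 did not differ by the test in those labelled Notch1-/-Notch2-/- (adjusted p = 0.377). The labels do not name the deleted exons, so counts over the whole gene neither check nor contradict these genotypes, and genotype names below are those of the labels. CPM are counts scaled to a common library total after TMM scaling. Control replicate 4 had the lowest mean level of the 39 genes among the controls, a mean log2 CPM of 3.32 against 4.37 to 5.08 in the other 5. Control replicate 6 and Notch2-/- replicates 3 and 4 carried both Xist and the Y-linked Ddx3y above 10 CPM. Control replicate 1 had Xist at 1624 CPM and Ddx3y at 0, while control replicate 2 had 0.527 and 109 CPM. The same contrast occurred within Notch1-/-Notch2-/- and within Rbpj-/- tumours, so none of these groups came from a single mouse. All Notch1-/- libraries carried Ddx3y and had Xist at no more than 2.04 CPM.

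Sequence upstream of the genes was read from RefSeq promoter windows of assembly GRCm38.p6, which held an entry for 29 of the 39 genes. The letters AGGAAGT, the core of sites bound by PU.1, were searched on both strands in the 250 bases before each annotated start, of which a gene can have several. They were present for 9 of the 29 members with a window (31.0%) and for 8.80% of the 27025 genes with one. The sites of 8 of these genes are shown so that genes that fell can be set beside genes that did not: P2ry12, Hpgds, C1qb and C1qc fell in Rbpj-/-, Notch1-/- and Notch1-/-Notch2-/- tumours, Fcrls and Lyz2 in the latter pair, and Sall1 and Ptprc in none. Each is given 5′ to 3′ on the strand of the match, with the match in capitals.
P2ry12 (chr3:59263021-59263047, minus strand): gctaacaagaAGGAAGTtccccagtga
Hpgds (chr6:65144762-65144788, minus strand): ttttaggtggAGGAAGTggcctctggc
C1qb (chr4:136886237-136886263, plus strand): tgctgccctcAGGAAGTttcaggtcct
C1qc (chr4:136893093-136893119, plus strand): tgccaaaatgAGGAAGTgtctgccgtc
Fcrls (chr3:87263583-87263609, plus strand): taggaaaaaaAGGAAGTggcaaagttg
Lyz2 (chr10:117282356-117282382, plus strand): tgtgcaaaacAGGAAGTtcctaccgat
Sall1 (chr8:89043027-89043053, minus strand): cgcgggagttAGGAAGTtcgccgctcg
Ptprc (chr1:138175402-138175428, minus strand): acttgaattaAGGAAGTaagaagccat
Ptprc held 2 sites, of which 1 is shown. The matches of P2ry12 and C1qb began 52 and 53 bases before the annotated start and lay outside the span of the gene, as did those of C1qc and Lyz2. The site of P2ry12 lay in an exon of Med12l. Those of Hpgds, Fcrls, Sall1 and Ptprc lay inside the span of their own gene, before a start further in, the first pair in exons of these genes and the other pair in none. The match of Hpgds began 48 and that of Sall1 181 bases before that start, and of the 3 windows of Sall1 the other 2 held no match. The longer GAGGAAGT was present for 2 of the 29 members (C1qc and Hpgds) and 2.79% of all genes, and the shorter GAGGAA, which overlaps it, for 16 members (55.2%) and 25.9% of all genes. The composite element of a PU.1 and an interferon regulatory factor site, TTTCACTT and CTAAAAATA were present for no member with a window, and for 2.68%, 1.62% and 0.537% of all genes. The letters are a description of these windows and say nothing of binding.

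The whole 250-base windows that hold the matches of C1qb, which fell in 3 genotypes, and Sall1, which fell in none, overlapped no annotated exon and are given for context, 5′ to 3′ along the gene. Capitals mark the same letters, or their reverse complement where the match lies on the other strand.
C1qb (chr4:136886201-136886450, minus strand): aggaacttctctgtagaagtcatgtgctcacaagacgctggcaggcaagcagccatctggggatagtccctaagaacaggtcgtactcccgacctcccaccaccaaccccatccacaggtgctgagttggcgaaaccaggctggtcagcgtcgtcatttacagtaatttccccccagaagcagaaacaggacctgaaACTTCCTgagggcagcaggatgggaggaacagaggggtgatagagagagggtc
Sall1 (chr8:89042863-89043112, minus strand): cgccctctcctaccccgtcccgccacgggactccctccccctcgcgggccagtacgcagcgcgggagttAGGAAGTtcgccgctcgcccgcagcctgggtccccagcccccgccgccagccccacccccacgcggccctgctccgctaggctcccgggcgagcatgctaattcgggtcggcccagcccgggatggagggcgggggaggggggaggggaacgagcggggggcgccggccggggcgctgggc

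The microglia and macrophage genes were lower than in control tumours in Notch1-/-, Notch1-/-Notch2-/- and Rbpj-/- tumours, and none of the 39 rose in any of them. With the quasi-likelihood test of edgeR over all 26 libraries and a Benjamini-Hochberg adjusted p under 0.05, 36 of 39 fell in Notch1-/- tumours, where 13.5% of all genes tested fell. In Notch1-/-Notch2-/- tumours 35 of 39 fell, where 18.8% of all genes did. In Rbpj-/- tumours 29 of 39 fell, where 7.25% of all genes did. In Notch2-/- tumours the test called 0 of 39, where it called 0.295% of all genes (0.166% as lower). An unadjusted p under 0.05 was found for 18 of the 39, and the share of all genes at that threshold was not counted. The median log2 fold change of the 39 genes was -2.98 in Notch1-/-, -3.07 in Notch1-/-Notch2-/-, -2.47 in Rbpj-/- and -0.94 in Notch2-/- tumours, beside 0.04, 0.01, 0.07 and 0.02 over all genes tested. These 4 comparisons share the control libraries, so they are given side by side and not as independent results.

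**Figure D1:**
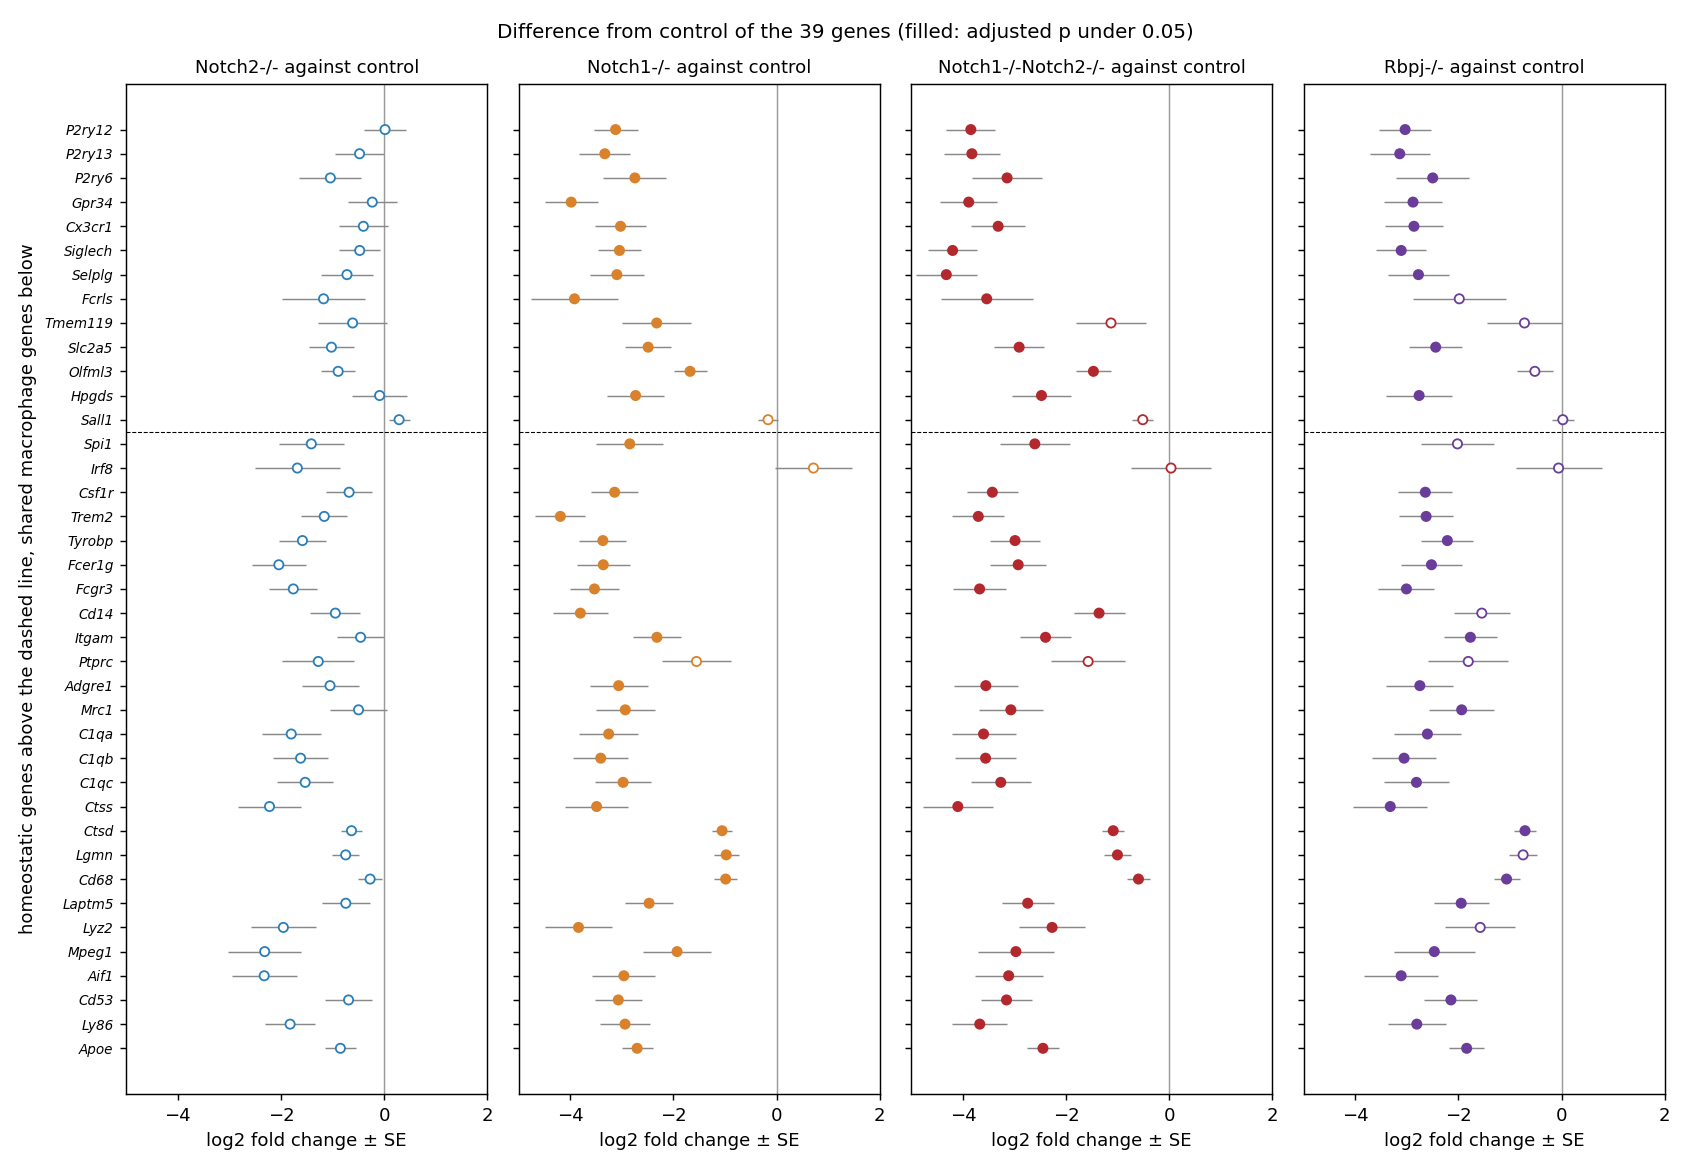
Log2 fold change from control (horizontal axis, with its standard error) of each of the 39 genes in 4 genotypes, with the 13 homeostatic genes above the dashed line and the 26 shared genes below it. Filled points have an adjusted p under 0.05: 36 in Notch1-/-, 35 in Notch1-/-Notch2-/-, 29 in Rbpj-/- and 0 in Notch2-/- tumours.

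Overlap of single libraries with the controls was counted for each gene. Every Notch1-/-Notch2-/- library was below every control library for 29 of 39 genes, against 11.1% of all genes tested. The same held for 23 of 39 in Notch1-/- tumours (3.50% of all genes), for 22 in Rbpj-/- tumours (4.96%) and for 1, Mpeg1, in Notch2-/- tumours (0.768%). The mean level was highest in the controls for 36 of 39 genes. It was lowest in Notch1-/-Notch2-/- tumours for 23 genes, in Notch1-/- for 11, in Rbpj-/- for 4 and in Notch2-/- for 1 (Irf8). This order of means was not counted over all genes tested.

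Among the 13 homeostatic genes, 12 fell in Notch1-/-, 11 in Notch1-/-Notch2-/- and 9 in Rbpj-/- tumours, with median log2 fold changes of -3.03, -3.32 and -2.76. Siglech, a surface receptor of the Siglec family (Entrez 233274, chr7:55768154-55779448), was at 5.35 to 19.7 CPM with a median of 15.9 CPM in the controls. Its level in Notch1-/- tumours was 0.569 to 3.39 CPM with a median of 1.45 CPM. The Notch1-/-Notch2-/- libraries had 1.14, 0.795, 0.513, 0.601 and 0.923 CPM, the Rbpj-/- libraries 1.40, 1.68, 2.14 and 1.56 CPM and the Notch2-/- libraries 12.3, 8.84, 3.56, 16.8 and 11.3 CPM. No library of the first 3 genotypes reached the lowest control, whereas the Notch2-/- libraries lay within the control range except for 1 below it. The log2 fold change was -4.20 ± 0.47 (adjusted p = 3.97e-06) in Notch1-/-Notch2-/-, -3.05 ± 0.41 (adjusted p = 6.27e-05) in Notch1-/- and -3.11 ± 0.49 (adjusted p = 0.000813) in Rbpj-/- tumours by the edgeR test.

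P2ry12, the receptor through which microglia sense ADP and extend their processes (Entrez 70839, chr3:59216271-59262985), had its highest mean in Notch2-/- tumours. The controls ranged over 20.7 to 78.1 CPM with a median of 38.8 CPM, and the Notch2-/- libraries held 46.0, 38.7, 16.1, 76.6 and 46.8 CPM. Notch1-/- libraries were at 1.77 to 7.41 CPM with a median of 5.17 CPM. Values were 4.78, 3.79, 1.80, 2.38 and 2.64 CPM in Notch1-/-Notch2-/- and 2.48, 4.93, 9.62 and 4.57 CPM in Rbpj-/- libraries. The Notch2-/- and control libraries overlapped along nearly their whole range, and every library of the other 3 genotypes was below every one of both. The fold change was -3.85 ± 0.48 (adjusted p = 8.65e-06) in Notch1-/-Notch2-/-, -3.12 ± 0.43 (adjusted p = 6.27e-05) in Notch1-/-, -3.03 ± 0.50 (adjusted p = 0.00107) in Rbpj-/- and 0.02 ± 0.41 (adjusted p = 0.99) in Notch2-/- tumours on the log2 scale by edgeR. The gene shares 9 exon bases with Med12l on the opposite strand, and whether the counting used strand is not given in the sources used here.

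Olfml3, a secreted glycoprotein that microglia make (Entrez 99543, chr3:103735394-103738001), had smaller fold changes than the median of the homeostatic genes in Notch1-/-, Notch1-/-Notch2-/- and Rbpj-/- tumours and a larger one in Notch2-/- tumours, where that median was -0.48. It was at 17.6 to 55.4 CPM with a median of 44.6 CPM in the controls and 8.67 to 22.4 CPM with a median of 12.6 CPM in Notch1-/- tumours. Notch2-/- libraries had 23.4, 23.6, 21.9, 22.8 and 21.9 CPM, Notch1-/-Notch2-/- libraries 14.8, 18.5, 10.6, 14.9 and 17.4 CPM and Rbpj-/- libraries 66.7, 12.1, 19.2 and 19.6 CPM. The Notch2-/- libraries lay close together between the lowest control and the other 5, and Rbpj-/- replicate 1 stood above all controls while the other 3 Rbpj-/- libraries were low. The fold change was -1.68 ± 0.32 (adjusted p = 0.0011) in Notch1-/- and -1.47 ± 0.34 (adjusted p = 0.00204) in Notch1-/-Notch2-/- tumours by edgeR, and it was not called in Rbpj-/- (-0.52 ± 0.35 (adjusted p = 0.326)) or Notch2-/- tumours (-0.89 ± 0.33 (adjusted p = 0.244)).

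**Figure D2:**
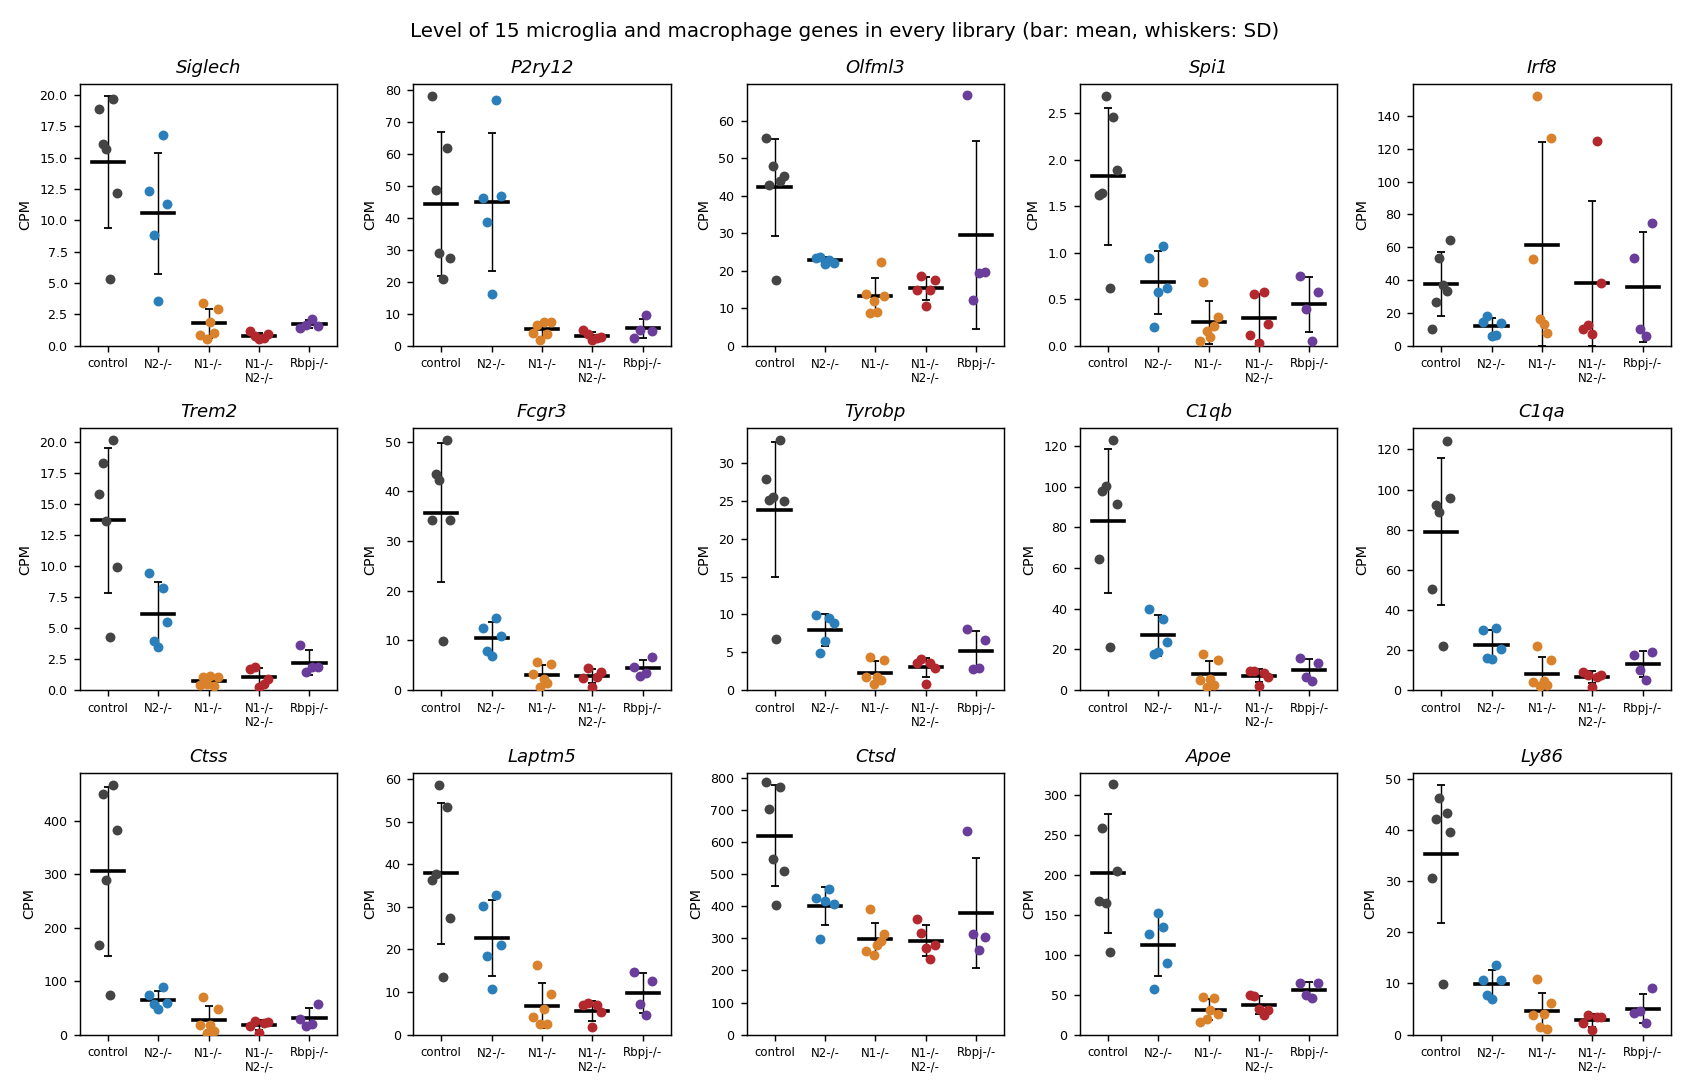
CPM (vertical axis, starting at 0 and scaled for each gene) of 15 of the 39 genes in every library of the 5 genotypes, with N1 and N2 for Notch1 and Notch2. Bars are means and whiskers SD, those that would pass below 0 ending at the axis. Irf8 is the gene with at least 1 library above every control in 3 of the mutant genotypes.

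The other homeostatic receptors and enzymes mostly fell alike. P2ry13, another ADP receptor, Gpr34, a receptor of lysophosphatidylserine, Cx3cr1, the receptor of fractalkine, and Selplg, the ligand of P-selectin, fell in the 3 genotypes with fold changes from -4.32 ± 0.59 (Selplg in Notch1-/-Notch2-/-) to -2.78 ± 0.60 (Selplg in Rbpj-/-) on the log2 scale. Cx3cr1 went from 56.7 ± 24.2 CPM (SD, n = 6) in the controls to 5.69 ± 3.25 CPM (SD, n = 5) in Notch1-/-Notch2-/- and 42.9 ± 20.0 CPM (SD, n = 5) in Notch2-/- tumours. P2ry6, a UDP receptor, Slc2a5, a fructose transporter, and Hpgds, a prostaglandin D synthase, fell in the same 3 genotypes, with P2ry6 in Rbpj-/- tumours losing its call without Rbpj-/- replicate 2 (adjusted p = 0.0671). Fcrls, an Fc receptor-like gene, fell in Notch1-/- (-3.92 ± 0.85) and Notch1-/-Notch2-/- tumours (-3.54 ± 0.89) but was not called in Rbpj-/- (-1.98 ± 0.90 (adjusted p = 0.133), edgeR). It varied widely among the controls, from 1.57 to 61.9 CPM.

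Tmem119 and Sall1 did not follow the other homeostatic genes throughout. Which of the sorted cells held the RNA of either gene cannot be told from bulk counts. Tmem119, a membrane protein used to tell microglia from other macrophages, fell in Notch1-/- tumours (-2.33 ± 0.67 (adjusted p = 0.0145) by edgeR). In Notch1-/-Notch2-/- libraries it was at 3.07, 13.1, 0.537, 16.0 and 4.33 CPM and in Rbpj-/- libraries at 16.5, 1.87, 3.60 and 17.2 CPM, beside 5.74 to 24.5 CPM with a median of 15.7 CPM in the controls. Some libraries of both mutant genotypes were within the control range and others well below it, and neither difference was called (adjusted p = 0.197 and 0.518). Sall1, a transcription factor that keeps microglia in their resting identity, was at 33.2 to 64.0 CPM with a median of 47.7 CPM in the controls and at 24.7 to 57.7 CPM with a median of 43.7 CPM in Notch1-/- tumours. Its libraries overlapped between control and each mutant genotype, and its fold change was -0.17 ± 0.20 (adjusted p = 0.54) in Notch1-/-, -0.51 ± 0.21 (adjusted p = 0.0546) in Notch1-/-Notch2-/-, 0.02 ± 0.22 (adjusted p = 0.956) in Rbpj-/- and 0.29 ± 0.20 (adjusted p = 0.494) in Notch2-/- tumours by edgeR, with no call.

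Of the transcription factors among the shared genes, Spi1 fell in Notch1-/- and Notch1-/-Notch2-/- tumours and Irf8 in none. Spi1, which encodes PU.1 (Entrez 20375, chr2:91082374-91115759), was low in all libraries. It was at 0.617 to 2.68 CPM with a median of 1.77 CPM in the controls and 0.0466 to 0.684 CPM with a median of 0.186 CPM in Notch1-/- tumours. Notch2-/- libraries held 0.939, 0.203, 0.578, 1.07 and 0.621 CPM, Notch1-/-Notch2-/- libraries 0.114, 0.556, 0.0233, 0.574 and 0.231 CPM and Rbpj-/- libraries 0.749, 0.395, 0.0514 and 0.580 CPM. All Notch1-/-Notch2-/- libraries were below all controls, and the other genotypes overlapped them through control replicate 4. It fell in Notch1-/- (-2.85 ± 0.65 (adjusted p = 0.00354)) and Notch1-/-Notch2-/- tumours (-2.60 ± 0.68 (adjusted p = 0.0049)) by edgeR and was not called in Rbpj-/- (-2.02 ± 0.72 (adjusted p = 0.0559)) or Notch2-/- tumours (-1.41 ± 0.64 (adjusted p = 0.313)).

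Irf8, the interferon regulatory factor that partners PU.1 (Entrez 15900, chr8:120736358-120756694), ranged over 9.99 to 64.3 CPM with a median of 35.3 CPM in the controls. Notch1-/- libraries spread over 7.96 to 152 CPM with a median of 34.7 CPM. The values were 10.1, 12.6, 7.28, 125 and 38.1 CPM in Notch1-/-Notch2-/-, 53.2, 10.3, 5.68 and 74.7 CPM in Rbpj-/- and 14.2, 18.0, 5.65, 6.73 and 13.8 CPM in Notch2-/- libraries. In each of Notch1-/-, Notch1-/-Notch2-/- and Rbpj-/- some libraries stood above every control and others below nearly all of them, while the Notch2-/- libraries kept to the lower end. No comparison with control called it by edgeR: the log2 fold change was 0.71 ± 0.75 (adjusted p = 0.485) in Notch1-/-, 0.04 ± 0.78 (adjusted p = 0.975) in Notch1-/-Notch2-/-, -0.06 ± 0.83 (adjusted p = 0.972) in Rbpj-/- and -1.68 ± 0.82 (adjusted p = 0.338) in Notch2-/- tumours.

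Of the 10 surface receptors and adaptors, 9 fell in Notch1-/-, 9 in Notch1-/-Notch2-/- and 8 in Rbpj-/- tumours. Trem2, a receptor for lipids and cell debris (Entrez 83433, chr17:48346401-48352276), was at 4.30 to 20.1 CPM with a median of 14.7 CPM in the controls and 0.333 to 1.14 CPM with a median of 0.757 CPM in Notch1-/- tumours. Notch2-/- libraries had 9.44, 3.95, 3.47, 8.27 and 5.51 CPM, Notch1-/-Notch2-/- libraries 1.71, 1.85, 0.280, 0.492 and 0.923 CPM and Rbpj-/- libraries 3.67, 1.48, 1.85 and 1.83 CPM. Every Notch1-/-, Notch1-/-Notch2-/- and Rbpj-/- library was below every control, and the Notch2-/- libraries overlapped only control replicate 4. Its fold change was -4.19 ± 0.48 (adjusted p = 1.42e-05) in Notch1-/-, the lowest of the 39 genes there, -3.70 ± 0.51 (adjusted p = 2.16e-05) in Notch1-/-Notch2-/-, -2.63 ± 0.52 (adjusted p = 0.00384) in Rbpj-/- and -1.16 ± 0.45 (adjusted p = 0.263) in Notch2-/- tumours by edgeR.

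Tyrobp, the adaptor through which Trem2 signals (Entrez 22177, chr7:30413782-30417582), was at 6.72 to 33.0 CPM with a median of 25.3 CPM in the controls. Notch1-/- libraries were at 0.759 to 4.38 CPM with a median of 1.69 CPM. In Notch2-/-, Notch1-/-Notch2-/- and Rbpj-/- libraries it was at 9.94, 4.94, 6.45, 9.58 and 8.84 CPM, 3.62, 4.11, 0.793, 3.55 and 2.95 CPM and 8.08, 2.83, 2.93 and 6.64 CPM. Control replicate 4 stood apart at the bottom of its group, and all mutant libraries were far below the other 5 controls. By edgeR the log2 fold change was -3.37 ± 0.45 (adjusted p = 6.27e-05) in Notch1-/-, -2.99 ± 0.48 (adjusted p = 9.7e-05) in Notch1-/-Notch2-/-, -2.22 ± 0.50 (adjusted p = 0.00767) in Rbpj-/- and -1.58 ± 0.45 (adjusted p = 0.15) in Notch2-/- tumours.

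Fcgr3, a receptor for immunoglobulin G (Entrez 14131, chr1:171051169-171065915), showed the same gap. The controls ranged over 9.92 to 50.3 CPM with a median of 38.2 CPM and Notch1-/- libraries over 0.664 to 5.69 CPM with a median of 2.72 CPM. It was at 12.5, 7.85, 6.81, 14.5 and 11.0 CPM in Notch2-/-, 2.43, 4.48, 0.723, 2.73 and 3.61 CPM in Notch1-/-Notch2-/- and 4.73, 2.93, 3.42 and 6.61 CPM in Rbpj-/- libraries. Only the Notch2-/- libraries overlapped the controls, and only through control replicate 4. The fold change was -3.68 ± 0.51 (adjusted p = 2.53e-05) in Notch1-/-Notch2-/-, -3.53 ± 0.47 (adjusted p = 5.85e-05) in Notch1-/-, -3.01 ± 0.54 (adjusted p = 0.00221) in Rbpj-/- and -1.76 ± 0.47 (adjusted p = 0.128) in Notch2-/- tumours by edgeR.

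Csf1r, the receptor that microglia need to survive, fell from 120.0 ± 51.2 CPM (SD, n = 6) in the controls to 13.6 ± 10.5 CPM (SD, n = 6) in Notch1-/- and 11.1 ± 5.11 CPM (SD, n = 5) in Notch1-/-Notch2-/- tumours. It shares 873 exon bases with Hmgxb3 on the opposite strand, so its counts are uncertain to that extent. Fcer1g, the common chain of Fc receptors, Adgre1, an adhesion receptor used as a marker of macrophages, Itgam, an integrin chain, and Mrc1, the mannose receptor, fell in the 3 genotypes, Mrc1 being the lowest of the 39 genes per length at 0.573 ± 0.282 RPKM in the controls. The calls of Itgam in Rbpj-/- tumours ended without Rbpj-/- replicate 1 or 2 (adjusted p up to 0.0746), and that of Mrc1 without most single libraries (up to 0.123, edgeR). Itgam also shares 3450 exon bases with Gm49368 on the same strand. Ptprc, the phosphatase found on all white blood cells, had a fold change of -1.55 ± 0.67 in Notch1-/-, -1.57 ± 0.71 in Notch1-/-Notch2-/- and -1.81 ± 0.78 in Rbpj-/- tumours and was called in none (adjusted p = 0.0825, 0.0838 and 0.113 by edgeR). Cd14, a co-receptor for bacterial lipopolysaccharide, fell in Notch1-/- (-3.81 ± 0.53 (adjusted p = 6.8e-05)) and in Notch1-/-Notch2-/- tumours (-1.36 ± 0.50 (adjusted p = 0.0346)), the second call ending without single libraries of either group (adjusted p up to 0.0907, edgeR).

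The 3 chains of complement C1q, the protein that tags material for removal, fell together in the 3 genotypes. C1qb (Entrez 12260, chr4:136880126-136886200) was at 21.2 to 123 CPM with a median of 94.7 CPM in the controls and 1.55 to 17.5 CPM with a median of 5.21 CPM in Notch1-/- tumours. It was at 40.1, 17.7, 18.6, 35.0 and 23.8 CPM in Notch2-/-, 9.32, 9.24, 1.84, 8.36 and 6.46 CPM in Notch1-/-Notch2-/- and 15.7, 6.48, 4.55 and 13.2 CPM in Rbpj-/- libraries. All libraries other than those of Notch2-/- were below all controls. The fold change by edgeR was -3.56 ± 0.58 (adjusted p = 0.000116) in Notch1-/-Notch2-/-, -3.41 ± 0.54 (adjusted p = 0.000238) in Notch1-/-, -3.06 ± 0.62 (adjusted p = 0.00455) in Rbpj-/- and -1.62 ± 0.53 (adjusted p = 0.202) in Notch2-/- tumours.

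C1qa (Entrez 12259, chr4:136895916-136898844) ranged over 22.1 to 124 CPM with a median of 90.7 CPM in the controls. Its Notch1-/- libraries ranged over 1.83 to 21.8 CPM with a median of 4.23 CPM. Values were 29.9, 16.2, 15.8, 31.0 and 20.3 CPM in Notch2-/-, 9.14, 7.73, 1.45, 6.69 and 7.56 CPM in Notch1-/-Notch2-/- and 17.8, 10.2, 4.99 and 19.0 CPM in Rbpj-/- libraries. Notch1-/- replicate 2 came within a small distance of control replicate 4, and the Notch2-/- libraries straddled that control. C1qa fell, with -3.60 ± 0.62 (adjusted p = 0.000178) in Notch1-/-Notch2-/-, -3.26 ± 0.57 (adjusted p = 0.000535) in Notch1-/- and -2.60 ± 0.64 (adjusted p = 0.0117) in Rbpj-/- tumours, and had -1.80 ± 0.57 (adjusted p = 0.191) in Notch2-/- tumours (log2, edgeR). C1qc had -3.27 ± 0.59, -2.98 ± 0.54, -2.82 ± 0.63 and -1.53 ± 0.54 in the same order.

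Among the 7 lysosome and phagosome genes all 7 fell in Notch1-/- and Notch1-/-Notch2-/- tumours and 5 in Rbpj-/- tumours, but by very different amounts. Ctss, a cysteine protease that cuts antigens and matrix (Entrez 13040, chr3:95526786-95556405), was at 74.2 to 467 CPM with a median of 337 CPM in the controls. Its level in Notch1-/- tumours was 3.57 to 69.5 CPM with a median of 17.8 CPM. Notch2-/- libraries had 73.8, 58.2, 47.3, 88.5 and 59.5 CPM, Notch1-/-Notch2-/- libraries 15.4, 25.0, 3.64, 21.6 and 23.5 CPM and Rbpj-/- libraries 29.0, 16.6, 19.1 and 57.2 CPM. All libraries of these genotypes except 1 of Notch2-/- were below the lowest control, which was itself well under the others. The fold change was -4.10 ± 0.68 (adjusted p = 0.000127) in Notch1-/-Notch2-/-, -3.49 ± 0.61 (adjusted p = 0.000564) in Notch1-/-, -3.32 ± 0.72 (adjusted p = 0.00593) in Rbpj-/- and -2.22 ± 0.62 (adjusted p = 0.146) in Notch2-/- tumours on the log2 scale by edgeR.

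Laptm5, a protein of the lysosomal membrane in blood cells (Entrez 16792, chr4:130912890-130936148), was at 13.6 to 58.6 CPM with a median of 37.0 CPM in the controls and 2.42 to 16.3 CPM with a median of 5.00 CPM in Notch1-/- tumours. The Notch2-/- libraries had 30.3, 18.5, 10.7, 32.7 and 21.0 CPM, the Notch1-/-Notch2-/- libraries 6.87, 7.52, 1.73, 6.88 and 5.31 CPM and the Rbpj-/- libraries 14.8, 7.20, 4.60 and 12.6 CPM. Only Notch1-/-Notch2-/- libraries were all below the controls, 1 library each of Notch1-/- and Rbpj-/- passing control replicate 4. By edgeR it fell with -2.74 ± 0.51 (adjusted p = 0.00033) in Notch1-/-Notch2-/-, -2.47 ± 0.47 (adjusted p = 0.000994) in Notch1-/- and -1.95 ± 0.53 (adjusted p = 0.0185) in Rbpj-/- tumours, the last call ending without Rbpj-/- replicate 2 (adjusted p = 0.0610).

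Ctsd, an aspartic protease of lysosomes (Entrez 13033, chr7:142375910-142387827), had the highest level per length of the 39 genes in the controls. It was at 403 to 788 CPM with a median of 624.97 CPM in the controls and 248 to 391 CPM with a median of 287 CPM in Notch1-/- tumours. Notch2-/- libraries were at 425, 298, 418, 454 and 407 CPM, Notch1-/-Notch2-/- libraries at 361, 318, 271, 236 and 278 CPM and Rbpj-/- libraries at 635, 312, 265 and 306 CPM. Rbpj-/- replicate 1 was within the upper control range and the other 3 were below it, as were all Notch1-/- and Notch1-/-Notch2-/- libraries. The log2 fold change was -1.08 ± 0.21 (adjusted p = 0.000458) in Notch1-/-Notch2-/-, -1.06 ± 0.20 (adjusted p = 0.000867) in Notch1-/- and -0.71 ± 0.22 (adjusted p = 0.0332) in Rbpj-/- tumours by edgeR. The call in Rbpj-/- tumours ended without any of 6 single libraries (adjusted p up to 0.108), and Ctsd shares 808 exon bases with Gm49369 on the same strand.

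Lgmn, another lysosomal protease, and Cd68, a glycoprotein of lysosomes, fell less than most of the group, at -0.98 ± 0.25 and -0.99 ± 0.22 in Notch1-/- tumours, and Cd68 had -0.59 ± 0.23 in Notch1-/-Notch2-/- tumours. The call of Cd68 in Notch1-/-Notch2-/- tumours (adjusted p = 0.0451, edgeR) ended without single libraries of either group (up to 0.118). Lgmn was not called in Rbpj-/- tumours (-0.75 ± 0.28 (adjusted p = 0.0689), edgeR). Mpeg1, a pore-forming protein of phagosomes, fell in the 3 genotypes, with -2.97 ± 0.73 in Notch1-/-Notch2-/-, -2.47 ± 0.78 in Rbpj-/- and -1.93 ± 0.65 in Notch1-/- tumours, the last 2 calls ending without single libraries (up to 0.0985 and 0.0681). Lyz2, a lysozyme with a near-identical neighbour, Lyz1, whose reads may be shared with it, fell in Notch1-/- (-3.84 ± 0.65) and Notch1-/-Notch2-/- (-2.27 ± 0.64) and was not called in Rbpj-/- tumours (-1.58 ± 0.68 (adjusted p = 0.111), edgeR), where replicate 4 was at 21.1 CPM and the others at 2.30 to 7.98 CPM.

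The remaining 4 shared genes, Aif1, Cd53, Ly86 and Apoe, fell in the 3 genotypes. Apoe, a lipid carrier that astrocytes also make (Entrez 11816, chr7:19696244-19701310), ranged over 104 to 313 CPM with a median of 186 CPM in the controls and 16.1 to 46.9 CPM with a median of 28.5 CPM in Notch1-/- tumours. It was at 126, 57.4, 153, 135 and 89.8 CPM in Notch2-/-, 49.5, 47.9, 32.5, 24.9 and 30.4 CPM in Notch1-/-Notch2-/- and 64.6, 49.7, 45.9 and 65.3 CPM in Rbpj-/- libraries. No Notch1-/-, Notch1-/-Notch2-/- or Rbpj-/- library reached a control, and the Notch2-/- libraries overlapped only control replicate 4. The fold change was -2.70 ± 0.30 (adjusted p = 8.36e-06) in Notch1-/-, -2.45 ± 0.32 (adjusted p = 1.4e-05) in Notch1-/-Notch2-/-, -1.84 ± 0.34 (adjusted p = 0.00236) in Rbpj-/- and -0.85 ± 0.30 (adjusted p = 0.228) in Notch2-/- tumours (log2, edgeR).

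Ly86, a secreted partner of a Toll-like receptor homologue (Entrez 17084, chr13:37345345-37419036), was at 9.94 to 46.2 CPM with a median of 40.8 CPM in the controls. Notch1-/- libraries were at 1.19 to 10.8 CPM with a median of 3.91 CPM. Notch2-/- libraries had 10.7, 7.80, 6.98, 13.7 and 10.7 CPM, Notch1-/-Notch2-/- libraries 2.36, 3.79, 0.840, 3.47 and 3.38 CPM and Rbpj-/- libraries 4.19, 4.54, 2.37 and 9.03 CPM. Apart from control replicate 4, all controls were above every mutant library. By edgeR its log2 fold change was -3.67 ± 0.53 (adjusted p = 3.88e-05) in Notch1-/-Notch2-/-, -2.94 ± 0.48 (adjusted p = 0.000298) in Notch1-/-, -2.81 ± 0.56 (adjusted p = 0.00383) in Rbpj-/- and -1.82 ± 0.49 (adjusted p = 0.128) in Notch2-/- tumours. Aif1, the calcium-binding protein stained as Iba1, and Cd53, a tetraspanin of white blood cells, had -3.11 ± 0.66 and -3.15 ± 0.50 in Notch1-/-Notch2-/- tumours.

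Levels of different genes were compared per length, as RPKM, the CPM of a gene divided by its deposited length in kilobases. In the controls Ctsd was highest at 318 ± 80.2 RPKM (SD, n = 6), followed by Ctss at 225 ± 116 RPKM, Lgmn at 155 ± 45.1 RPKM and Apoe at 127 ± 47.0 RPKM. The spreads of these neighbours overlapped. C1qb, C1qa and C1qc came next at 78.2 ± 33.5 RPKM, 73.0 ± 33.8 RPKM and 49.7 ± 23.0 RPKM, and their ranges of mean ± SD overlapped. The 13 genes with the highest mean were all shared genes, and the homeostatic genes began with Olfml3 at 24.3 ± 7.39 RPKM, P2ry12 at 18.9 ± 9.66 RPKM and Cx3cr1 at 15.1 ± 6.44 RPKM. Spi1, whose product drives the lineage, was among the lowest at 1.36 ± 0.549 RPKM.

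In Notch2-/- tumours the homeostatic and the shared genes had different medians, and the difference between the groups was not tested. The median log2 fold change from control was -0.48 over the 13 homeostatic genes and -1.34 over the 26 shared genes. Of the 18 genes with an unadjusted p under 0.05, 2 were homeostatic and 16 shared, with no count over all genes beside them. None of these passed adjustment in edgeR over all libraries. With the Wald test of DESeq2, 10 shared genes and 0 homeostatic genes fell, where 1.63% of all genes fell, and with limma voom and quality weights 16 shared genes and 1 homeostatic gene, Olfml3, fell, where 6.05% of all genes did. Without control replicate 4, edgeR called 3 shared genes (Fcer1g, Fcgr3 and Ly86) and 0.365% of all genes as lower. The largest differences were those of Aif1 (-2.33 ± 0.63), Mpeg1 (-2.32 ± 0.71) and Ctss (-2.22 ± 0.62), and the smallest those of P2ry12 (0.02 ± 0.41), Hpgds (-0.09 ± 0.53) and Gpr34 (-0.23 ± 0.47), on the log2 scale. Mpeg1 was at 17.8, 23.2, 13.1, 36.4 and 32.5 CPM in Notch2-/- libraries, all below the lowest control at 36.9 CPM.

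The balance of the groups within a library is given by the mean log2 CPM of the 13 homeostatic genes minus that of the 26 shared genes, as a description with no test. It was -0.18, -0.02, -0.76, -0.06 and -0.10 in Notch2-/- libraries and was above every control library in 4 of these 5. In the controls it was -1.65 to -0.28 with a median of -1.10. The Notch1-/- libraries had -1.58 to -0.17, the Notch1-/-Notch2-/- libraries -0.82, -1.22, -0.51, -1.83 and -1.78 and the Rbpj-/- libraries -1.25, -0.74, -0.44 and -1.69. The libraries of these last 3 genotypes overlapped the control range of this balance, while the mean level of both gene groups was lower than in every control library.

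**Figure D3:**
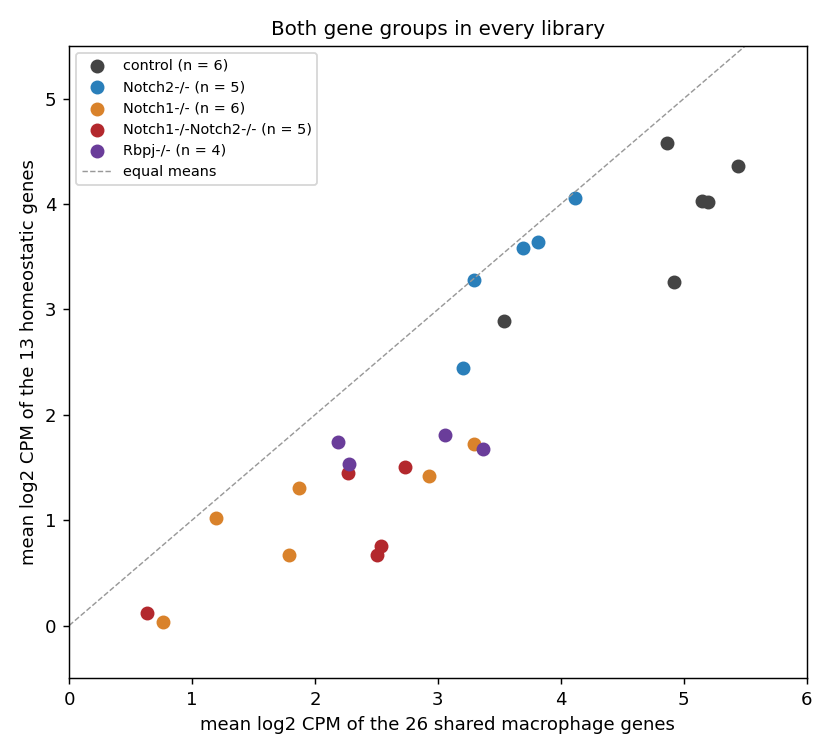
Mean log2 CPM of the 26 shared genes (horizontal axis) against that of the 13 homeostatic genes (vertical axis) in each of the 26 libraries, with a dashed line where both are equal. Of the 5 Notch2-/- libraries, 4 lie close under the line, as does Notch1-/- replicate 5. Control replicate 4 lies among the Notch2-/- libraries. The other controls lie to the right of all Notch2-/- libraries and overlap them in height. The other 3 genotypes lie to the lower left of all controls.

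Notch1-/- and Notch2-/- tumours, which share no libraries, were compared directly. With edgeR, 18 of the 39 genes were lower in Notch1-/- than in Notch2-/- tumours and none higher, where 2.25% of all genes were lower. Of these 7 were homeostatic genes out of 13 and 11 shared genes out of 26, with median log2 differences of -2.57 and -1.59. The calls with the smallest adjusted p were Gpr34 (-3.75 ± 0.52 (adjusted p = 0.000157)), P2ry12 (-3.14 ± 0.43 (adjusted p = 0.000159)) and Trem2 (-3.03 ± 0.47 (adjusted p = 0.000533)). Siglech (-2.57 ± 0.42), P2ry13 (-2.86 ± 0.50), Cx3cr1 (-2.63 ± 0.49), Csf1r (-2.46 ± 0.45), Cd14 (-2.86 ± 0.53) and Apoe (-1.86 ± 0.30) were lower as well. For Ctss (-1.27 ± 0.58 (adjusted p = 0.238)), Aif1 (-0.64 ± 0.60 (adjusted p = 0.599)) and Mpeg1 (0.39 ± 0.67 (adjusted p = 0.793)) the difference was not called, and Irf8 had 2.40 ± 0.84 (adjusted p = 0.118). Every Notch1-/- library was below every Notch2-/- library for 16 of the 39 genes, against 2.40% of all genes tested. Without Notch2-/- replicates 3 and 4 and control replicate 6, which carried both Xist and Ddx3y, 11 of the 39 were lower, where 0.795% of all genes were.

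Notch1-/-Notch2-/- tumours were also set against Notch1-/- tumours. Of the 39 genes, edgeR called 1, Cd14, as higher in Notch1-/-Notch2-/- than in Notch1-/- tumours, where 0.333% of all genes were higher. Cd14 was at 1.34, 2.68, 0.350, 1.31 and 0.872 CPM in Notch1-/-Notch2-/- libraries and 0.119 to 0.426 CPM with a median of 0.218 CPM in Notch1-/- tumours. The lowest Notch1-/-Notch2-/- library was within the range of the Notch1-/- libraries and the others were above it. The log2 difference was 2.45 ± 0.52 (adjusted p = 0.0343), and the call ended without any of 7 single libraries (adjusted p up to 0.151), among them Notch1-/- replicates 1, 3, 4 and 5 and Notch1-/-Notch2-/- replicates 1, 2 and 4. Between Rbpj-/- and Notch1-/-Notch2-/- tumours edgeR called 0 of 39 genes, where it called 0.794% of all genes. An unadjusted p under 0.05 was found for 5 of the 39, and the share of all genes at that threshold was not counted. DESeq2 and limma voom also called 0. The median log2 difference was 0.64, and P2ry12 (0.81 ± 0.46), Siglech (1.09 ± 0.46), C1qb (0.50 ± 0.57) and Apoe (0.61 ± 0.33) were among those with Rbpj-/- above. A p above the threshold does not show that these levels were alike.

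A further 18 genes known from microglia, 17 of them tested, mostly moved with the 39: 14 fell in Notch1-/-, 14 in Notch1-/-Notch2-/- and 13 in Rbpj-/- tumours, and 0 were called in Notch2-/- tumours by edgeR. Slco2b1, an organic anion transporter, had -3.22 ± 0.36 (adjusted p = 3.97e-06) in Notch1-/-Notch2-/- and -2.58 ± 0.38 (adjusted p = 0.000445) in Rbpj-/- tumours by edgeR. Blnk, a signalling adaptor, had -3.14 ± 0.48 (adjusted p = 6.33e-05) and -3.03 ± 0.52 (adjusted p = 0.00155) in the same genotypes. Golm1, a Golgi membrane protein, was the 1 gene of these that rose, in Notch1-/-Notch2-/- tumours (0.44 ± 0.14). Tgfbr1, a receptor of transforming growth factor beta, had 0.26 ± 0.21 there and was not called.

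Genes of activated and disease-associated microglia did not move one way. Of 14, 5 fell in Notch1-/-, 6 fell and 1 rose in Notch1-/-Notch2-/-, 4 fell and 1 rose in Rbpj-/- and 1 fell in Notch2-/- tumours. That 1 was Cst7, a cystatin, which had -4.43 ± 0.79 (adjusted p = 0.00871) in Notch2-/-, -3.82 ± 0.76 (adjusted p = 0.000609) in Notch1-/-Notch2-/- and -3.53 ± 0.82 (adjusted p = 0.00864) in Rbpj-/- tumours by edgeR. Ccl6, a chemokine, fell with -4.34 ± 0.59 in Notch1-/- and -3.14 ± 0.59 in Notch1-/-Notch2-/- tumours, and Ctsb, a lysosomal protease, with -0.88 ± 0.21 and -1.17 ± 0.22. Gpnmb, a transmembrane glycoprotein, rose in Rbpj-/- (2.61 ± 0.84 (adjusted p = 0.0383)) and Lgals3, a galectin, in Notch1-/-Notch2-/- tumours (2.34 ± 0.84 (adjusted p = 0.0327), edgeR).

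Of 8 genes for ligands that act on microglial receptors, Cd47, the signal against phagocytosis, and Ccl2, a chemokine, fell in the 3 genotypes, Tgfb1 fell in Notch1-/- and Notch1-/-Notch2-/-, and 5 were called in none. Cd47 had -0.71 ± 0.13 (adjusted p = 0.000273) and Ccl2 -2.88 ± 0.69 (adjusted p = 0.00263) in Notch1-/-Notch2-/- tumours. Csf1 and Il34, the ligands of Csf1r, had 0.12 ± 0.39 and -0.06 ± 0.54 in Notch1-/- tumours, and Cx3cl1, the ligand of Cx3cr1, 0.13 ± 0.18. Csf1 had a mean of 71.9 CPM in control and 78.3 CPM in Notch1-/- tumours, where single libraries spread over 24.1 to 208 CPM. Its mean was lower in the other genotypes, at 35.2 CPM in Notch2-/-, 53.4 CPM in Notch1-/-Notch2-/- and 38.6 CPM in Rbpj-/- tumours. Il34 had means of 3.32 CPM in control, 5.16 CPM in Rbpj-/- and 2.08 to 3.18 CPM in the remaining tumours. No call was made for Csf1, Il34 or Cx3cl1, while Csf1r and Cx3cr1 were lower in Notch1-/- tumours. The part of ligand level in the fall of the receptors was not tested.

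Markers of other cells were measured beside these differences. The summed level of 9 genes of border-associated macrophages was 2.72 to 11.5 CPM in the controls, 6.15 to 11.0 CPM in Notch2-/-, 0.958 to 4.26 CPM in Notch1-/-, 1.14 to 3.58 CPM in Notch1-/-Notch2-/- and 2.30 to 4.27 CPM in Rbpj-/- libraries. Of the 5 of these genes tested, 3 fell in Notch1-/-, 3 in Notch1-/-Notch2-/-, 0 in Rbpj-/- and 0 in Notch2-/- tumours. The 10 genes of monocytes and neutrophils summed to 1.35 to 16.7 CPM in the controls, and their sum was 1.16 to 2.70 CPM in libraries of Notch2-/-, 0.0633 to 3.67 CPM in those of Notch1-/-, 0.140 to 6.36 CPM in those of Notch1-/-Notch2-/- and 0.460 to 5.08 CPM in those of Rbpj-/-. Ly6g was at 0 in every library of the 4 mutant genotypes, and S100a9 also in Notch1-/- and Chil3 in control and Notch2-/- tumours. Genes of T and NK cells summed to at most 7.55 CPM and those of B cells to at most 1.24 CPM in any library.

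Endothelial and myelin genes also fell in the tumours where the members fell. All 10 endothelial genes fell in Notch1-/-, 9 in Notch1-/-Notch2-/- and 8 in Rbpj-/- tumours, and their summed level was 77.5 to 246 CPM in control libraries, 60.2 to 149.6 CPM in those of Notch2-/-, 22.1 to 42.1 CPM in those of Notch1-/-, 26.8 to 71.1 CPM in those of Notch1-/-Notch2-/- and 32.5 to 83.6 CPM in those of Rbpj-/-. Of 9 genes of mural cells and fibroblasts, the other cells of vessel walls, 4, 3 and 2 fell in the same genotypes, and their sum overlapped the controls in each, at 135 to 640.1 CPM in control, 35.8 to 657 CPM in Notch2-/-, 10.6 to 743 CPM in Notch1-/-, 16.6 to 252 CPM in Notch1-/-Notch2-/- and 13.0 to 525 CPM in Rbpj-/- libraries. Of 8 genes of mature oligodendrocytes, 6, 8 and 7 fell in the same genotypes, and of 8 of astrocytes 6, 6 and 4. The summed level of mature oligodendrocyte genes was 7953 to 21359 CPM in control, 1697 to 16729 CPM in Notch2-/-, 1644 to 15983 CPM in Notch1-/-, 1419 to 4448 CPM in Notch1-/-Notch2-/- and 2399.7 to 7618 CPM in Rbpj-/- libraries, so that Notch1-/- replicate 2 lay within the control range while all Notch1-/-Notch2-/- and Rbpj-/- libraries lay below it. The 8 genes of oligodendrocyte precursors and glioma cells summed to 6191 to 8995 CPM in control, 8366 to 10530.2 CPM in Notch2-/-, 5251 to 9467 CPM in Notch1-/-, 3726 to 8283 CPM in Notch1-/-Notch2-/- and 7008 to 9463 CPM in Rbpj-/- libraries, and 2 Notch1-/-Notch2-/- libraries lay below every control. Of these genes edgeR called 0 in Notch1-/-, Notch2-/- and Rbpj-/- and 1 fall and 1 rise in Notch1-/-Notch2-/- tumours. The part of these other cells in the differences of the 39 genes was not tested.

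**Figure D4:**
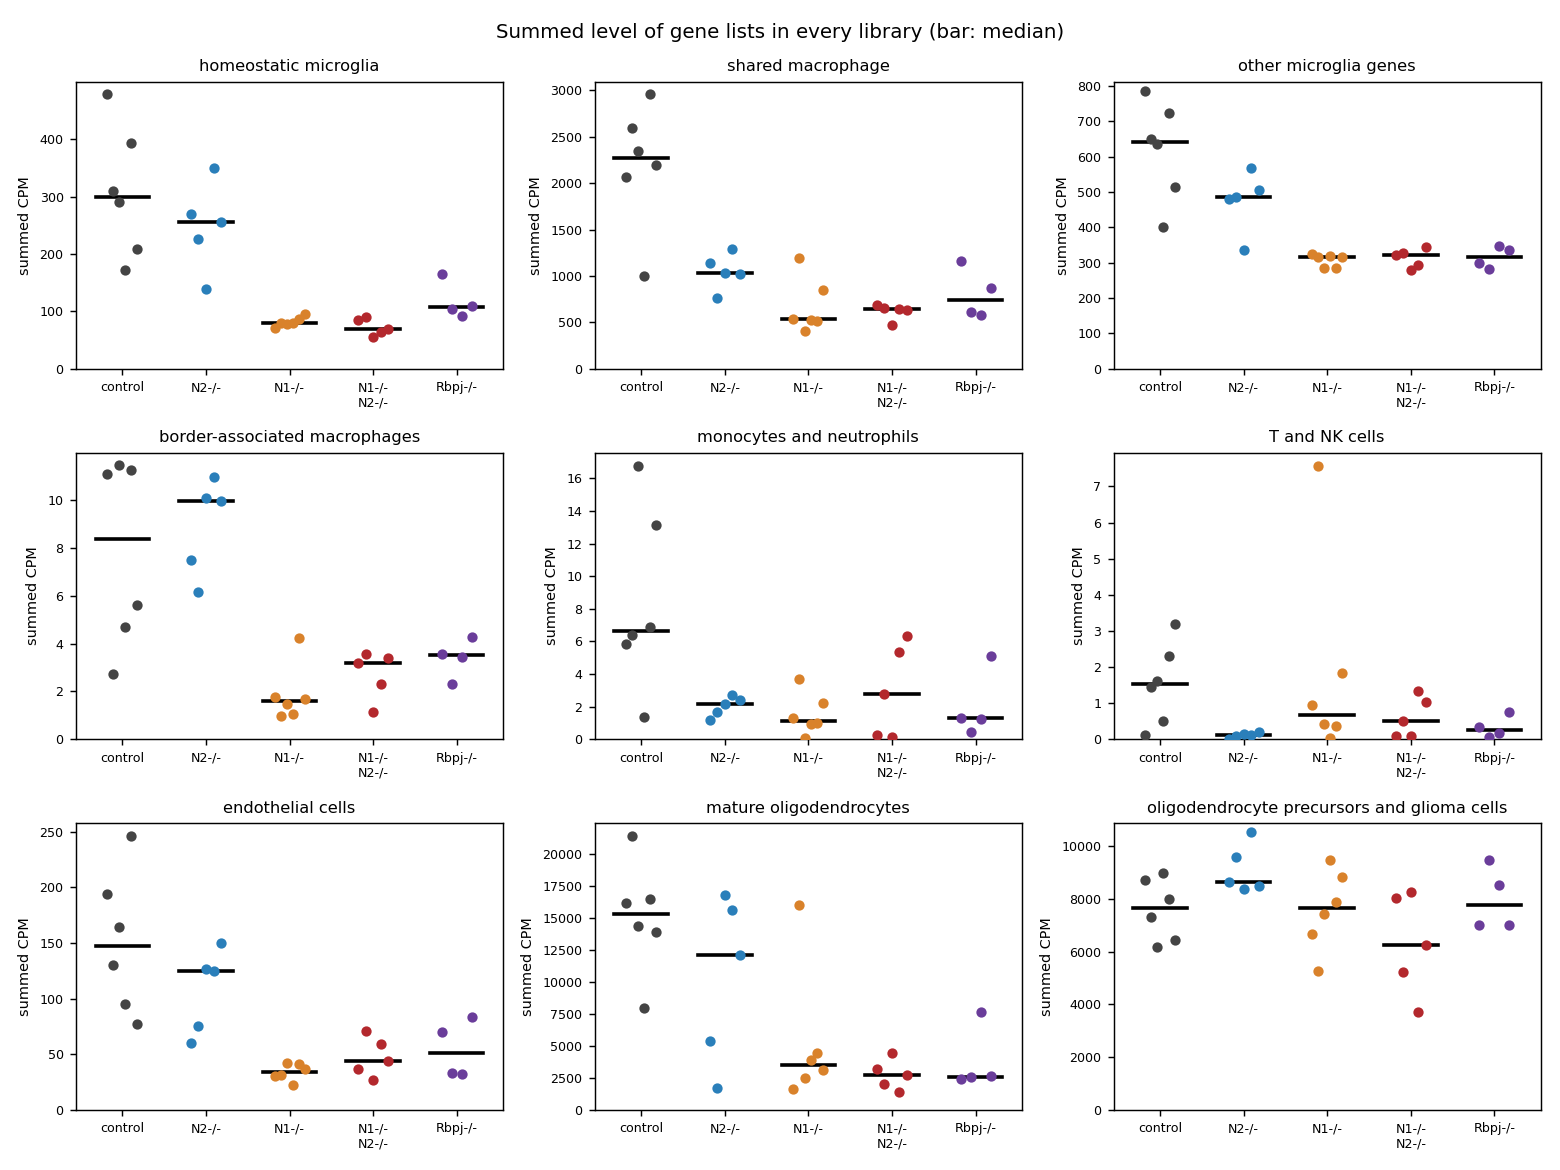
Summed CPM (vertical axis, starting at 0 and scaled for each list) of 9 gene lists in every library of the 5 genotypes, with bars at the median. The shared macrophage genes had a median of 2275 CPM in control, 1034 CPM in Notch2-/- and 533 to 741 CPM in the other genotypes. The oligodendrocyte precursor and glioma genes had medians of 6239 to 8663 CPM over the 5 genotypes. Sums weigh the highest genes most. In Notch1-/- tumours Ctsd and Lgmn had means of 298 and 147 CPM within a mean shared sum of 672 CPM. Sall1 there had a mean of 43.6 CPM within a mean homeostatic sum of 81.9 CPM.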

How the data were processed

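The deposited table holds raw counts per gene for 26 libraries, whole numbers under Entrez identifiers, with a gene length. Per the labels' protocols, Trizol RNA went into a strand-specific TruSeq kit. The submitters' processing notes name STAR and mm10. How reads were counted, and whether by strand, is not given in the sources used here. Counts of 5 members that share exon bases with another gene are therefore uncertain.

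Symbols and positions came from a RefSeq gene table of GRCm38.p6, in which 24374 of 24454 identifiers matched. Overlaps were read from GENCODE for GRCm38. Genes were filtered with filterByExpr by genotype, scaled by TMM and fitted with genotype as the only term in edgeR 4.0.16 (R 4.3.3). The quasi-likelihood test was adjusted by Benjamini-Hochberg across 15617 genes, with a threshold of 0.05, and a gene fell or rose where it passed. Mean log2 CPM used a prior count of 2. No 2 libraries of a genotype agreed within sampling noise (56 pairs, chi-square per gene at least 42.3).

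The members and gene lists were chosen with earlier results of these data known, so no score over members was tested. Members with every library's value are, per role, those with the 2 smallest adjusted p in Notch1-/-Notch2-/- against control and the highest control RPKM. Up to 3 genes per other list were named by adjusted p, and further genes were named after their values were seen. Alternatives were DESeq2 1.42.0 (size factors and Wald test), limma 3.58.1 voom with quality weights, a filter of 10 CPM in 4 libraries or none, a block for the replicate number, log2 CPM of Xist as a covariate, only the compared genotypes, each library left out, and, chosen after seeing the data, leaving out the 3 libraries with both Xist and Ddx3y. Counts simulated with known changes served to test the procedure.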

Additional observations from a re-analysis of the deposited data

Results flagged for a closer look

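Single libraries lay far from the others of their genotype in 10 of the 90 checks made on 15 genes and 3 library means. The checks share libraries, and the means are built from the member genes, so this number was not compared with chance. Rbpj-/- replicate 1 was high for 3 genes: Olfml3 was at 66.7 CPM against 12.1 to 19.6 CPM in the other 3 libraries, Ctsd at 635 CPM against 265.0 to 312 CPM, and Trem2 at 3.67 CPM against 1.48 to 1.85 CPM. Without this library 27 of the 39 genes and 4.51% of all genes fell in Rbpj-/- tumours by edgeR, where 29 of the 39 fell with it. Control replicate 4 was low, with Olfml3 at 17.6 CPM against 42.9 to 55.4 CPM, Tyrobp at 6.72 CPM against 24.9 to 33.0 CPM and a mean log2 CPM of the shared genes of 3.53 against 4.87 to 5.44. Without it edgeR called 32 of the 39 genes as lower in Rbpj-/-, 35 in Notch1-/-Notch2-/- and 36 in Notch1-/- tumours, where 9.48%, 19.9% and 16.2% of all genes were lower.

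Olfml3 was at 22.4 CPM in Notch1-/- replicate 5, against 8.67 to 13.8 CPM in the other 5 libraries. Irf8, the interferon regulatory factor, was at 125 CPM in Notch1-/-Notch2-/- replicate 4, against 7.28 to 38.1 CPM. Notch1-/-Notch2-/- replicate 3 had the lowest mean log2 CPM of the shared genes, 0.63 against 2.27 to 2.73, and without it 33 of the 39 genes fell, where 18.6% of all genes did. The homeostatic minus shared mean of Notch2-/- replicate 3, 1 of the libraries with both Xist and Ddx3y, was -0.76, against -0.18 to -0.02 in the other 4. No explanation of these values was tested.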

How the results depend on the processing

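Of the genes that fell against control, 23 of 29 in Rbpj-/-, 33 of 35 in Notch1-/-Notch2-/- and 35 of 36 in Notch1-/- tumours held their call without each single library and under every other setting in which they were tested, as did 11 of 18 in Notch1-/- against Notch2-/- tumours. P2ry6, Slc2a5, Hpgds, Spi1, Cd14 and Mrc1 were not tested under the filter of 10 CPM. No difference of a member that was called turned its direction. In Notch2-/- against control, where edgeR over all libraries called 0 members, the Wald test of DESeq2 called 10, limma voom 17 and a fit of the compared genotypes alone 9, where these called 1.63%, 6.05% and 0.98% of all genes as lower. Leaving out single libraries gave 0 to 3, the 3 without control replicate 4 (0.365% of all genes lower). In Notch1-/- against Notch2-/-, where edgeR called 18 members as lower, limma voom called 32 as lower (7.7% of all genes lower). The Wald test of DESeq2 called 23 as lower and 1 as higher, where 4.02% and 3.02% of all genes were. Without the 3 libraries with both Xist and Ddx3y, edgeR called 11 as lower (0.795%). The 1 call of Notch1-/-Notch2-/- against Notch1-/- became 0 under the filter of 10 CPM (fewer genes tested), limma voom, the replicate block, the Xist covariate and the compared genotypes alone, and 0 to 1 without single libraries. Apart from the filter, the cause was not tested.

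Replicate numbers did not pair the libraries: deviations from the genotype mean correlated by -0.42 to 0.63 (median -0.04) over 47 pairs of the same number, and 4 of 26 libraries correlated best with their own number. With the replicate block edgeR called 27 members in Rbpj-/-, 35 in Notch1-/-Notch2-/-, 37 in Notch1-/- and 0 in Notch2-/- tumours, where 4.78%, 17.3%, 12.9% and 0.0896% of all genes were lower. Size factors of DESeq2 moved the median of all genes by at most 0.03 on the log2 scale. Genes at few counts, such as Spi1 and P2ry6 with 1 count in their lowest library, are limited by depth.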
